A study of Rattus norvegicus with 10 samples.

Results

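The genes described here are 10 cytosolic and small heat shock proteins of rat gastrocnemius muscle, chosen by a fixed list of names: the cytosolic chaperones Hsp90aa1, Hsp90ab1, Hspa8, Hsph1 and Dnajb1, the small heat shock proteins Hspb1, Hspb6, Hspb7 and Cryab, and the mitochondrial chaperonin Hspd1. All 10 genes had a probe set on the array (a probe set is a group of short probes read together as 1 value), which made 10 of the 14218 genes named by a probe set with 1 gene and 15 of the 31099 probe sets in all, and all 15 were among the 15521 probe sets past a filter on low signal. The muscle came from male Wistar rats that were 6 weeks old when feeding of a reduced diet began and were fasted for 16 h before the tissue was taken. The groups were 5%, 10%, 20% and 30% calorie restriction (CR) for 1 month with a 1-month control, and the same levels for 1 week with a 1-week control. The RNA of 5 rats was pooled in each group and each pool was hybridised to 1 Affymetrix rat genome array, so that there were 10 arrays, 8 restricted and 2 control, and no replicate of any group. The values are MAS5 signals (a linear brightness scale), and a log2 ratio compares a restricted array with the control array of the same duration.

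A second description line of the 1-week control and of the 1-week 5% CR array states the feeding of the other, against the title and characteristics of both. Groups follow the titles and characteristics, and results that depend on this are also given with the 2 arrays exchanged.

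Heat shock proteins bind unfolded or stressed proteins. The HSP90 proteins hold client proteins such as steroid receptors and kinases in a state that can be activated, the HSP70 protein encoded by Hspa8 folds new chains with help from J-domain proteins such as Dnajb1 and from exchange factors such as Hsph1, and the small heat shock proteins form oligomers that keep damaged proteins soluble. In muscle, Cryab, Hspb1, Hspb6 and Hspb7 bind desmin, actin or filamin structures of the Z-disc, and Cryab is richest in slow oxidative fibres. Hspd1 folds proteins in the mitochondrial matrix. Many of these genes are read by heat shock factor 1, which binds inverted repeats of GAA in a promoter.

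The promoters of 5 of these genes are printed to show windows with and without those repeats. The sequences are from RefSeq (build GRCr8), run 5′ to 3′ on the gene's own strand from 250 bases before to 50 bases after the start, and capitals mark a match to GAANNTTC, TTCNNGAA or 3 such units in a row. The windows are chr12:10427118-10427417, plus strand (Hsph1), chr19:41431092-41431391, minus strand (Dnajb1), chr1:94934122-94934421, plus strand (Hspb6), chr5:159010509-159010808, plus strand (Hspb7) and chr9:22930173-22930472, plus strand (Hsp90ab1).
Hsph1: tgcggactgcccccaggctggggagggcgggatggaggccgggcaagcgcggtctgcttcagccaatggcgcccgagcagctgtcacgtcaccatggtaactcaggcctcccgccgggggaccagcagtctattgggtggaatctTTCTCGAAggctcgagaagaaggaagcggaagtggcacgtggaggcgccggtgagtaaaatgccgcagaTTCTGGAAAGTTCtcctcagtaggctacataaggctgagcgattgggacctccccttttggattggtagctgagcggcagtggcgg
Dnajb1: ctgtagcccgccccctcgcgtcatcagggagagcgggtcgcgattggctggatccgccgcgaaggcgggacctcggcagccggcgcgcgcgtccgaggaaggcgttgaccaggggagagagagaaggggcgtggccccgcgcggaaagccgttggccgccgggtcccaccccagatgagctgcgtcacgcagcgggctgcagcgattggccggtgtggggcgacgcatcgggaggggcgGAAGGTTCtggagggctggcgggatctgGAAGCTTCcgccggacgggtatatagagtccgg
Hspb6: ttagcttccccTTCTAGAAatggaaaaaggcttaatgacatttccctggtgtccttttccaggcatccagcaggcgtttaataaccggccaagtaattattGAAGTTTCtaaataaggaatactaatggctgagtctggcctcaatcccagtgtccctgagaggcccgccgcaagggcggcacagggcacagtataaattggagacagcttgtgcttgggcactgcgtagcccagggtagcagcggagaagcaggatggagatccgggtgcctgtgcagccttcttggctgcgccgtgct
Hspb7: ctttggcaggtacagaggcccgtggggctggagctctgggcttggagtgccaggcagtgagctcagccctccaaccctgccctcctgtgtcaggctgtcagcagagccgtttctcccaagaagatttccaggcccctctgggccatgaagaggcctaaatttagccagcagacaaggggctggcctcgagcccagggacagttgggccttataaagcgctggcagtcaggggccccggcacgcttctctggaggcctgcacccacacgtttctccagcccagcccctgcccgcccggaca
Hsp90ab1: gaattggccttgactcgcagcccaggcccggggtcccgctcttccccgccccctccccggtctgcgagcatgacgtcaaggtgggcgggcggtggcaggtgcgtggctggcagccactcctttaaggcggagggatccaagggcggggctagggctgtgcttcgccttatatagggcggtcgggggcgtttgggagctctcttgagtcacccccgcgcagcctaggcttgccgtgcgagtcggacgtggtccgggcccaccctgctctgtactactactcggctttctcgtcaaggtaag

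Promoters were found for 8 of the 10 members, and none is shown for Hsp90aa1 or Cryab. The letters of 3 units in a row, GAANNTTCNNGAA or TTCNNGAANNTTC, were present in 3 of the 8, namely Hspa8, Hspd1 and Hsph1, against 0.798% of 33469 promoters of the same length. The element TTCTGGAAAGTTC of Hsph1 lay from -36 to -24 bases of the start, TTCTGGAAGGTTC of Hspa8 from -55 to -43, and the overlapping GAAGGTTCTAGAA and TTCCGGAAGGTTC of Hspd1 between -242 and -225. GAANNTTC alone, which is its own reverse complement and also lies inside the longer element, matched in 6 of 8 (with Dnajb1, Hspb1 and Hspb6), against 8.59% of all promoters, and TTCNNGAA matched in 4 of 8, against 8.77%. The windows of Hsp90ab1 and Hspb7 held no match to these letters, which says nothing about binding.

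Across the arrays, 2 members, Hsp90aa1 and Dnajb1, had a lower signal in all 8 restricted arrays than in the control of the same duration, each by both of its probe sets. With the 1-week control and 5% CR arrays exchanged neither was (6 and 5 of 8 by the brighter probe sets), and with median centring Dnajb1 was lower in 7 of 8. Directions differed between durations in other members: at 1 month 8 of the 10 were lower in all 4 restricted arrays, whereas at 1 week Hspb7, Cryab, Hspb6 and Hspa8 were higher in all 4 and Hsp90aa1, Hsp90ab1, Hsph1 and Dnajb1 were lower in all 4 by their brightest probe sets. The dimmer probe set of Hsp90ab1 was lower at 1 week in 2 of 4 arrays. At 1 month, Hspb1 and Hspb6 were lower in 3 of 4 with quantile normalization, and Hspb1 and Dnajb1 in 3 of 4 with median centring. Under these scalings 25.9% and 16.1% of all probe sets were lower in all 4 at 1 month. Of the 15521 probe sets tested, 8.36% were lower in all 8 comparisons, 28.1% were lower in all 4 at 1 month, 22% were lower in all 4 at 1 week and 23.9% were higher in all 4 at 1 week, the restricted arrays of a duration sharing 1 control array.

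**Figure D1:**
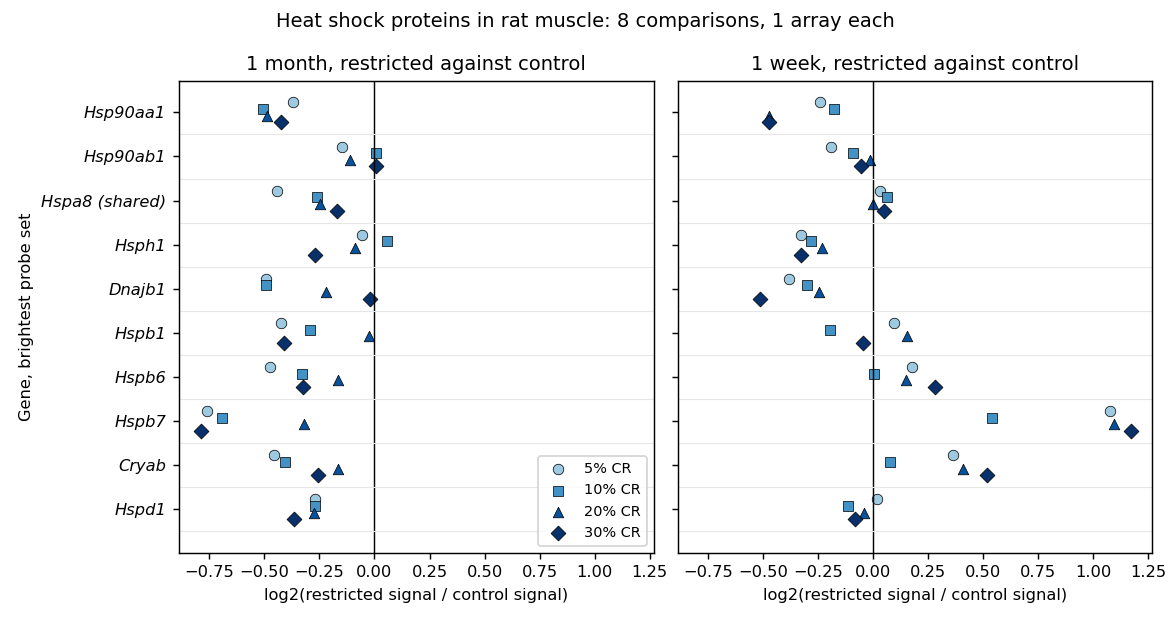
Log2 ratio of the restricted signal to the control signal of the same duration (x axis) for the brightest probe set of each of the 10 genes (y axis), with 1 point per restricted array, 1 month on the left and 1 week on the right. In the deposited scaling and with the arrays as titled, Hsp90aa1 and Dnajb1 lie left of 0 in all 8 comparisons, and Hspb7, Cryab, Hspb6 and Hspa8 lie left of 0 at 1 month and right of 0 at 1 week, although Hspa8 lies left of 0 at 1 week after quantile normalization.

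Hsp90aa1 encodes the stress-inducible cytosolic HSP90. Both of its probe sets are also annotated to the pseudogene Hsp90aa1-ps17, so that signal from either transcript cannot be told apart. The brighter probe set had signals of 974.7 in the 1-month control and 754.4, 687, 694.5 and 725.6 at 5%, 10%, 20% and 30% CR for 1 month. At 1 week the signals were 1054.7 in the control and 891.8, 933.4, 759.6 and 759.9 at 5%, 10%, 20% and 30% CR. At each duration the control was the highest array, and all 4 restricted arrays lay below it, with log2 ratios of -0.50 to -0.37 at 1 month and -0.47 to -0.18 at 1 week. The dimmer probe set had 475.8 in the 1-month control and 356.9, 315.3, 325.5 and 362 at 5%, 10%, 20% and 30% CR for 1 month. The 1-week values were 531.8 in the control and 348.6, 338.1, 384.7 and 313 at 5%, 10%, 20% and 30% CR. Here too both controls stood above every restricted array, and this was the member probe set with a log2 ratio of -0.25 or lower in all 8 comparisons, as were 1.14% of the probe sets tested.

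The fit of all arrays asked whether restricted muscle differed from control muscle with duration as a factor. With 1 array per group, the error in this fit comes from arrays of different levels of restriction, and the arrays are pools, so the p-values do not measure the spread between rats. In limma (Benjamini-Hochberg over 15521 probe sets), Hsp90aa1 fell to 0.761 of the control signal by the brighter probe set (log2 difference -0.39 ± 0.0855, SE, adjusted p = 0.0281) and to 0.680 by the dimmer probe set (-0.56 ± 0.0887, adjusted p = 0.00483). It was the only one of the 10 members called, 1 gene of 10, while 0.876% of all probe sets were called lower. With the 1-week control and 5% CR arrays exchanged, both probe sets were lower on average but neither was called (-0.24, adjusted p = 0.527, and -0.17, adjusted p = 0.744). Leaving out the 1-week control or the 1-month control ended the call of the brighter probe set (adjusted p = 0.136 and 0.291), as did leaving out the 1-week or the 1-month 20% CR array (adjusted p = 0.0501 and 0.0570), and the dimmer probe set lost its call without the 1-week control (adjusted p = 0.120).

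At 1 month the signal of Hsp90aa1 at 5% CR was already below the control, by log2 ratios of -0.37 and -0.41 for the brighter and the dimmer probe set. At 1 week the ratios at 5% CR were -0.24 and -0.61 as titled, and 0.24 and 0.61 with the control and 5% CR arrays exchanged, so that the direction at the mildest level at 1 week depends on the doubted labels. The slope per 10 percentage points of restriction was -0.13 ± 0.0363 (log2, adjusted p = 0.0885, limma) for the brighter probe set and -0.13 ± 0.0536 (adjusted p = 0.280) for the dimmer one, neither passing, and without the controls the slopes were -0.07 ± 0.0354 (adjusted p = 0.556) and -0.01 ± 0.0420 (adjusted p = 0.980). No member passed the slope fit, in which 2% of all probe sets were called in either direction, nor the slope without controls, in which 0.245% were called. At an unadjusted p below 0.05, 2 of the 10 members had a slope (Hsp90aa1 and Hsph1), against 14.3% of all probe sets, and without controls 1 had (Cryab, 0.10 ± 0.0371, adjusted p = 0.349), against 10.4%, both counts being near the background.

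Hsp90ab1 encodes the constitutive cytosolic HSP90. Its brighter probe set had 3435.9 in the 1-month control and 3105.3, 3451, 3180.6 and 3453 at 5%, 10%, 20% and 30% CR for 1 month, and at 1 week 3732.1 in the control and 3267.9, 3505.1, 3695.1 and 3591 at 5%, 10%, 20% and 30% CR. Restricted and control arrays overlapped at 1 month, and at 1 week the control was highest by a narrow margin over 20% CR. The difference was -0.07 (log2, 95% interval -0.22 to 0.08, adjusted p = 0.692), and the dimmer probe set gave -0.01 (95% interval -0.15 to 0.13, adjusted p = 0.969). The log2 ratios of the dimmer probe set of Hsp90ab1 at 1 week were -0.14, -0.07, 0.02 and 0.03 at 5%, 10%, 20% and 30% CR, on both sides of the control.

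The difference between both HSP90 genes was also compared directly, a comparison added after the values had been seen. The log2 signal of Hsp90aa1 minus that of Hsp90ab1 fell by 0.32 on average in restricted arrays relative to their controls, with a change below 0 in 8 of 8 comparisons (-0.51 to -0.05). An exact permutation test within durations gave p = 0.04, two-sided, the smallest value that the 25 arrangements can give. Hsp90aa1 had already been seen to be highest in both controls, so this p is not support apart from its ratios. With quantile normalization, or with the 1-week control and 5% CR arrays exchanged, the exact permutation p was 0.08. Leaving out 1 restricted array, which lowers the number of arrangements, gave an exact p of 0.05 to 0.1 for Hsp90aa1 minus Hsp90ab1, and leaving out a control gave 0.2 or 0.6, the change staying between -0.39 and -0.25.

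**Figure D2:**
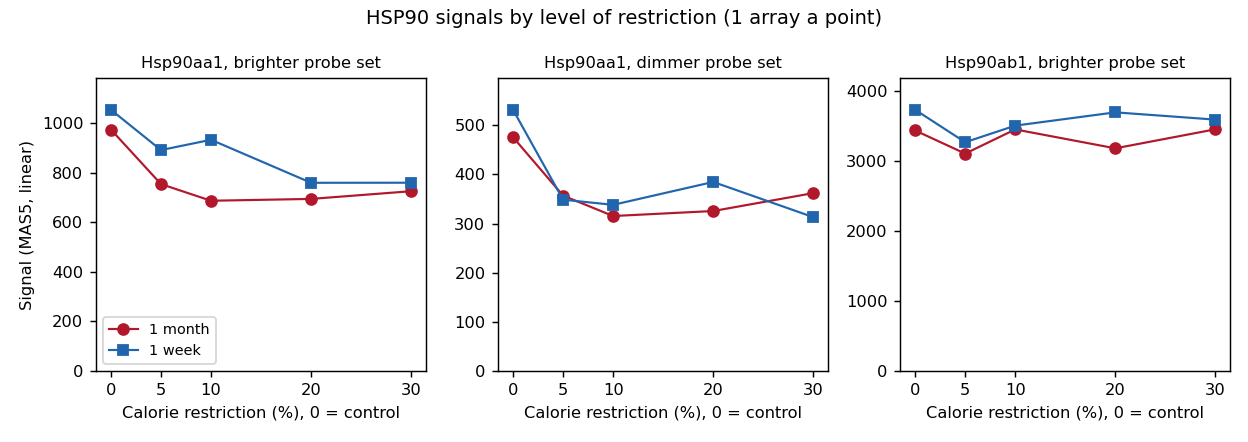
MAS5 signal (y axis, linear, from 0) against the level of calorie restriction (x axis, 0 is the control) for both probe sets of Hsp90aa1 and the brighter probe set of Hsp90ab1, 1 array a point, 1 month in red circles and 1 week in blue squares. Both controls are the highest points of their line for Hsp90aa1, with 974.7 and 1054.7 on the brighter probe set, and the lines of Hsp90ab1 are nearly flat.

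Of the HSP70 machinery, Dnajb1, a J-domain protein that brings clients to HSP70 and is induced by heat shock, had the larger difference. Its brighter probe set had 89.7 in the 1-month control and 63.7, 63.8, 76.9 and 88.4 at 5%, 10%, 20% and 30% CR for 1 month. At 1 week the values were 108.7 in the control and 83.5, 88.2, 91.8 and 76.1 at 5%, 10%, 20% and 30% CR. Restricted arrays stayed below the control at both durations, although the log2 ratio at 30% CR for 1 month was -0.02. The dimmer probe set of Dnajb1 was also lower in all 8, with log2 ratios of -0.65 to -0.47 at 1 month and -0.39 to -0.12 at 1 week. Neither passed the test (-0.33 ± 0.138, adjusted p = 0.278, and -0.41 ± 0.144, adjusted p = 0.178). With the exchange of the 1-week arrays the brighter probe set gave -0.10.

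Hsph1, the HSP110 exchange factor of HSP70, had 456 in the 1-month control and 438.3, 474.1, 429 and 378.5 at 5%, 10%, 20% and 30% CR for 1 month. At 1 week it had 597.5 in the control and 476.4, 491.6, 508.7 and 476.3 at 5%, 10%, 20% and 30% CR. The restricted 1-week arrays lay below their control by log2 ratios of -0.33 to -0.23, while at 1 month the restricted arrays lay on both sides of theirs. The fitted difference was -0.19 ± 0.0856 (adjusted p = 0.325), and its dimmer probe set gave -0.26 ± 0.110 (adjusted p = 0.299). With the 1-week arrays exchanged the brighter probe set gave 0.01.

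The probe set of Hspa8, the constitutive HSP70, also names Haus8l2, so its value cannot be assigned to Hspa8 alone. The signals were 5788.5 in the 1-month control and 4257, 4831.9, 4870.3 and 5138.4 at 5%, 10%, 20% and 30% CR for 1 month. At 1 week they were 6288.3 in the control and 6435.4, 6575.3, 6289.2 and 6513.2 at 5%, 10%, 20% and 30% CR, with log2 ratios of at most 0.06. The values at 1 month were lower in all restricted arrays, and those at 1 week lay just above the control. The probe set is among the brightest 1% of probe sets (311), as are the brightest ones of Cryab, Hspb6 and Hsp90ab1. Those 311 had median log2 ratios of -0.31 to -0.11 at 1 month and 0.02 to 0.10 at 1 week. After quantile normalization the ratios of Hspa8 were -0.10 to -0.06 at 1 month and -0.08 to -0.02 at 1 week.

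The small heat shock proteins had the widest log2 ratios, and with the arrays as titled 3 of the 4 had opposite directions at the 2 durations. Hspb7, a cardiac and skeletal muscle member that binds filamin, had 1115 in the 1-month control and 659.3, 690.9, 893.4 and 645 at 5%, 10%, 20% and 30% CR for 1 month. The 1-week control had 634.5, followed by 1335.8, 923.2, 1353.8 and 1428 at 5%, 10%, 20% and 30% CR. The 1-month control was thus above all its restricted arrays and the 1-week control below all of its own, with no overlap at either duration. The mean log2 ratio was -0.64 at 1 month, 0.642 of the control signal, and 0.97 at 1 week, 1.96 times the control signal. The dimmer probe set of Hspb7 was higher at 1 week in all 4 arrays (0.09 to 0.72) and at 1 month lower in 3 of 4 (-0.32 to 0.06). Exchanging the 1-week control and 5% CR arrays changed the direction at 1 week at 5% and 10% CR. The 1-week ratios of the brighter probe set were then -1.07, -0.53, 0.02 and 0.10 at 5%, 10%, 20% and 30% CR.

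Cryab, the alphaB-crystallin that protects desmin filaments, had 4183.7 in the 1-month control and 3053.7, 3156.2, 3735.2 and 3499.6 at 5%, 10%, 20% and 30% CR for 1 month. The 1-week signals were 3516 in the control and 4520.1, 3703.5, 4661.9 and 5031.7 at 5%, 10%, 20% and 30% CR. As for Hspb7, the control was the highest array at 1 month and the lowest at 1 week, with the 10% CR array nearest to it at 1 week (log2 ratio 0.07). Hspb6, also called HSP20, a phosphoprotein of muscle that binds actin-regulating proteins, had 4982.6 in the 1-month control and 3581.5, 3965.3, 4447.4 and 3977.3 at 5%, 10%, 20% and 30% CR for 1 month. For 1 week its signals were 5615.1 in the control and 6354.2, 5623.4, 6222.4 and 6824.7 at 5%, 10%, 20% and 30% CR, the 10% CR array being level with the control. With quantile normalization 3 of 4 ratios of Hspb6 were below 0 at 1 month and 3 of 4 above 0 at 1 week, while those of Hspb7 and Cryab kept their signs in 8 of 8. After exchange of the 1-week control and 5% CR arrays, the 1-week ratios changed direction in part. Those of Cryab were -0.36, -0.29, 0.04 and 0.15 at 5%, 10%, 20% and 30% CR. Those of Hspb6 were -0.18, -0.18, -0.03 and 0.10 at the same levels.

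Hspb1, or HSP27, the widely expressed small heat shock protein that binds actin, lay below the control at 1 month and around it at 1 week. It had 2012 in the 1-month control and 1501.3, 1644.3, 1977.1 and 1511.3 at 5%, 10%, 20% and 30% CR for 1 month. At 1 week it had 2815.4 in the control and 3010.3, 2454.4, 3129 and 2723.2 at 5%, 10%, 20% and 30% CR, on both sides of the control. The difference between restricted and control arrays was -0.14 ± 0.111 (adjusted p = 0.609).

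Averaged over the durations, none of the small heat shock proteins differed past the test: Hspb7 gave 0.17 ± 0.253 (adjusted p = 0.833), Cryab 0.01 ± 0.133 (adjusted p = 0.986) and Hspb6 -0.09 ± 0.105 (adjusted p = 0.779). With the 1-week control and 5% CR arrays exchanged, Hspb7 gave -0.51 (adjusted p = 0.495, limma) and Cryab -0.22 (adjusted p = 0.580). In limma, the restricted minus control value at 1 month less the same at 1 week was -1.61 ± 0.294 for Hspb7 (adjusted p = 0.107), -0.66 ± 0.204 for Cryab (adjusted p = 0.508), -0.48 ± 0.168 for Hspb6 (adjusted p = 0.560) and -0.32 for Hspa8 (adjusted p = 0.672). None passed, and without the 1-week 10% CR array Hspb7 did (-1.75, adjusted p = 0.00528). In this fit 0 of the 15521 probe sets were called (0%), and 1121 (7.22%) had an unadjusted p below 0.05, among them these 4 members. Lower at 1 month and higher at 1 week in all arrays was a pattern of 4 of the 10 members and of 5.21% of the probe sets tested. It was a pattern of 2 members (Cryab and Hspb7) with quantile normalization and 1 with median centring, and of 0 with the 1-week control and 5% CR arrays exchanged, against 3.89%, 1.62% and 3.52% of the probe sets. With cyclic loess Hspb7, Cryab and Hspb6 had the pattern, as did 4.42% of the probe sets.

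**Figure D3:**
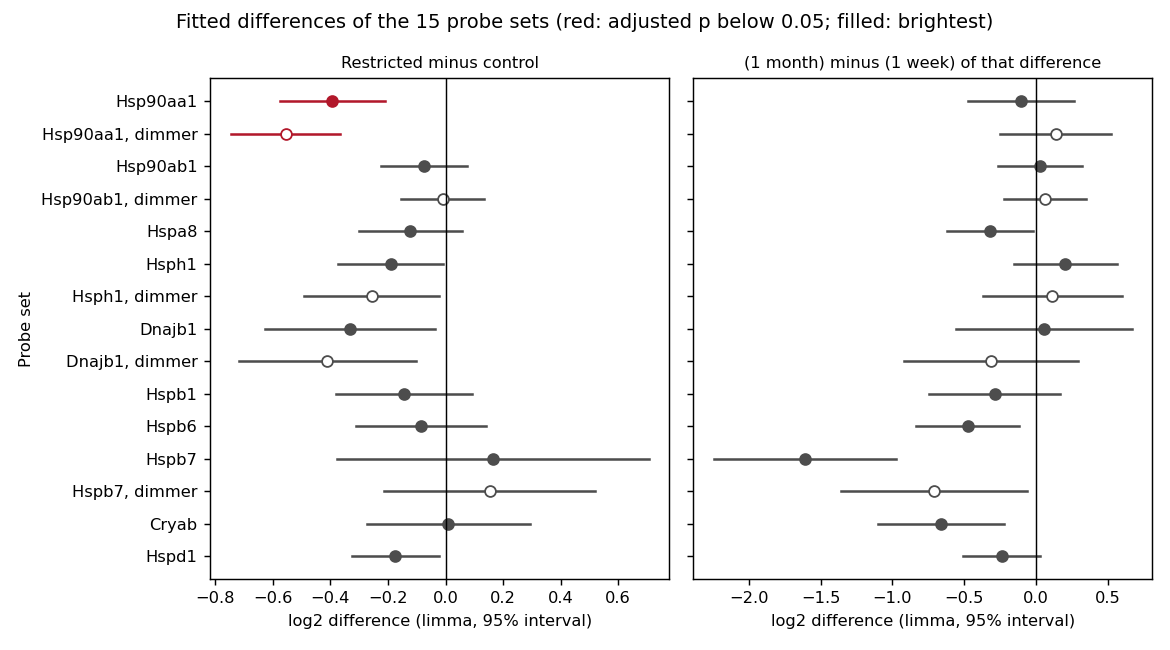
Fitted log2 differences with 95% intervals (x axis, limma) for the 15 probe sets (y axis), filled points for the brightest probe set of a gene and open points for a dimmer one, restricted minus control on the left and the 1-month value of that difference minus the 1-week value on the right. On the left the probe sets of Hsp90aa1 pass the test (red, -0.39 and -0.56), and on the right Hspb7 lies farthest from 0 (-1.61) and no point passes.

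Markers of muscle fibres are given beside these small heat shock proteins because they varied between the same arrays. The muscle markers Acta1, Ckm, Mb and Des had summed signals of 24243.5 to 29606.5 in the restricted 1-month arrays and 35532.8 in the 1-month control, and of 36091.3 to 38059.3 in the restricted 1-week arrays and 32826.9 in the 1-week control. The 15 fast fibre genes had median log2 ratios of -0.62 to -0.27 at 1 month and 0.07 to 0.13 at 1 week. With the arrays as titled, both lists were thus lower in all 4 restricted arrays at 1 month and higher in all 4 at 1 week. Hspb7, Cryab, Hspb6 and Hspa8 were too, and the part of the lists in those results was not tested. With the 1-week control and 5% CR arrays exchanged, the muscle marker sum of the 1-week control would be 36493.7. The 5%, 10%, 20% and 30% CR arrays would have 32826.9, 36091.3, 36148.6 and 38059.3. The summed fast fibre signal would be 139250 in that control and 130224, 141541, 139577 and 144338 in those arrays. The 11 slow fibre genes had median log2 ratios of 1.02 to 2.17 in the 4 restricted 1-week arrays. At 1 month their medians were -0.24, -0.40, 0.01 and 0.01 at 5%, 10%, 20% and 30% CR. Tpm3 of this list was lower at 1 week in the 20% and 30% CR arrays (191 and 194.5 against 207.4 in the control). The mean log2 signal of 11 genes of slow fibres, among them the slow myosin Myh7, was 9.54 in the 1-month control and 9.31, 9.07, 9.61 and 9.50 at 5%, 10%, 20% and 30% CR for 1 month. The 1-week means were 8.35 in the control and 10.02, 9.18, 10.11 and 10.24 at 5%, 10%, 20% and 30% CR. With the 1-week control and 5% CR arrays exchanged, the control mean would be 10.02. That is above 8.35 at 5% and 9.18 at 10% CR, and below 10.11 at 20% and 10.24 at 30% CR. The summed signal of the 11 genes was 8132.1 to 18191.3 in the restricted 1-week arrays and 4194.5 in the 1-week control, and 8186.2 to 11850.7 in the restricted 1-month arrays and 10805.2 in the 1-month control. The 1-week control was the lowest of the 10 arrays for Hspb7 and for the slow fibre mean, and the 10% CR array was the lowest restricted 1-week array for Hspb7, Cryab, Hspb6 and the slow fibre mean. The slow fibre mean was also used as a covariate, an alternative added after the values had been seen. Restricted minus control at 1 month less the same at 1 week was then -0.63 for Hspb7, 0.03 for Cryab and -0.07 for Hspb6. The covariate was itself lowest in the 1-week control, as Hspb7 was, so this fit cannot separate the slow fibre genes from that array. With the same covariate in the fit of restricted against control, the brighter probe set of Hsp90aa1 gave -0.36 (adjusted p = 0.130) and the dimmer one -0.54 (adjusted p = 0.0426). In a mixed piece of muscle a change in the share of slow fibres and a change of RNA within fibres cannot be told apart. With the 1-week control and 5% CR arrays exchanged, restricted minus control at 1 month less the same at 1 week was -0.27 for Hspb7.

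**Figure D4:**
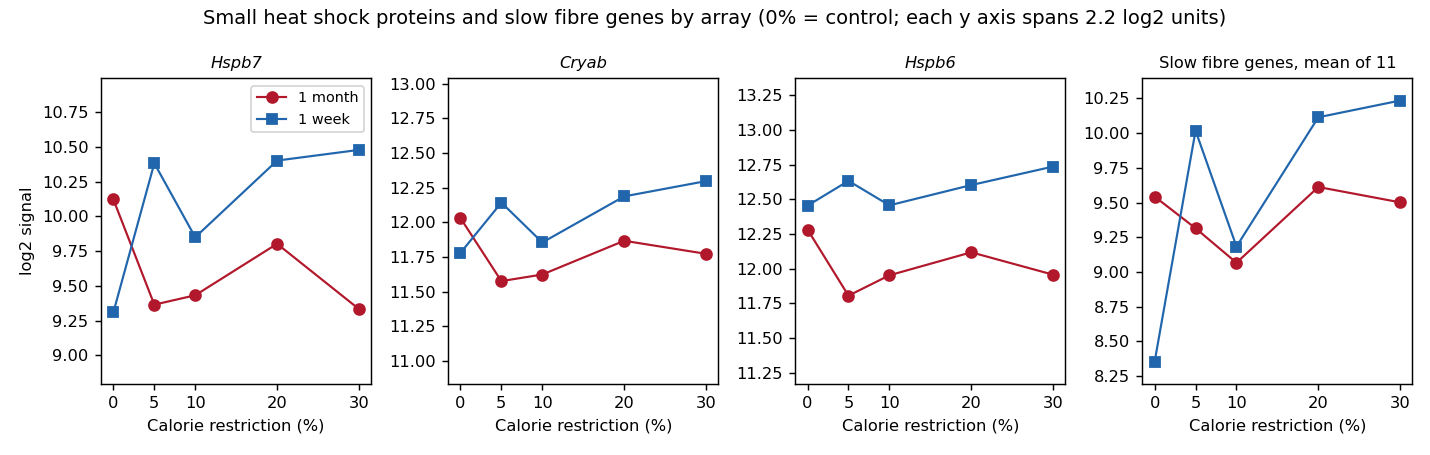
Log2 signal (y axis, each panel spanning 2.2 log2 units) against the level of calorie restriction (x axis, 0% is the control) for Hspb7, Cryab, Hspb6 and the mean of 11 slow fibre genes, 1 array a point, 1 month in red circles and 1 week in blue squares. The 1-week control is the lowest 1-week point in all 4 panels (8.35 for the slow fibre genes), and the 10% CR point lies below the 5%, 20% and 30% CR points at 1 week in each.

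Hspd1, the HSP60 of the mitochondrial matrix, had 1845 in the 1-month control and 1530.7, 1532.4, 1524.4 and 1431.8 at 5%, 10%, 20% and 30% CR for 1 month, all within a narrow band below the control. At 1 week it had 1960.7 in the control and 1982.3, 1814.3, 1905.4 and 1852.6 at 5%, 10%, 20% and 30% CR, close to the control. The difference over both durations was -0.17 ± 0.0706 (adjusted p = 0.264). Its signal at 1 month was lower by -0.37 to -0.27 (log2), and the 1-week ratios were -0.11 to 0.02.

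Muscle at 1 month was then set against muscle at 1 week. Duration, age and any array batch cannot be told apart here. The arrays of each duration were also scaled to a level of their own. The trimmed mean signal was 85.8 to 86.3 on the 1-month arrays and 99.1 to 99.6 on the 1-week arrays. At this scaling the median log2 difference was -0.21 over all probe sets, with 32.8% of them called lower. Hspb1 fell by 0.72 (adjusted p = 0.000102, limma), which was -0.50 relative to that median, and Hspb6 fell by 0.55 (adjusted p = 0.000389), -0.34 relative to it. Hspa8, Hspd1, Cryab and Hsph1 were also called lower (-0.37, -0.28, -0.28 and -0.23), which was -0.16, -0.07, -0.07 and -0.02 relative to the median. With quantile normalization, in which 5.49% of probe sets were called lower, 2 of the 6 members were called, Hspb1 and Hspb6. With median centring Hspb1 alone was called, and Cryab, Hspd1 and Hsph1 lay slightly above 0 (0.0153, 0.0136 and 0.0652). Cryab was called in 7 of 21 alternatives and lost its call without any 1 of the restricted arrays but the 1-week 10% CR array, and Hsph1 lost its call without the 1-month 30% CR array (adjusted p = 0.0528).

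The partners of these chaperones were counted on lists of genes, with the restricted against control fit. Of the HSP70 system (other HSP70s, J-domain proteins and exchange factors), 20 of 23 genes were tested and none passed, with a median difference of -0.03 (log2) against -0.01 over all probe sets. The smallest p values were those of Dnaja1, a J-domain protein of the cytosol (-0.33 ± 0.0876, adjusted p = 0.0668, lower in 8 of 8 comparisons), and Dnajb4 (0.22 ± 0.0796, adjusted p = 0.207, higher in 8 of 8). Of all probe sets tested, 8.36% were lower and 8.2% higher in all 8. With the 1-week control and 5% CR arrays exchanged, neither gene kept this pattern. The 1-week control of Dnaja1 would be 334.2, below 394.7 at 5% and 347.8 at 10% CR. That of Dnajb4 would be 1006.2, above 856.2 at 5% and 898.5 at 10% CR. Hspa1a, an inducible HSP70, gave 0.05 ± 0.159 (adjusted p = 0.923).

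Of 18 HSP90 co-chaperones tested none passed against control, with a median of -0.02, and in the slope fit 1 rose, while 0.941% of all probe sets did. That gene was Fkbp5, which encodes the immunophilin FKBP51 that binds HSP90 in steroid receptor complexes and is known as a target of the glucocorticoid receptor. Its signal was 269.2 in the 1-month control and 425.8, 447.9, 506.2 and 697.7 at 5%, 10%, 20% and 30% CR for 1 month. At 1 week it was 247.5 in the control and 279.2, 344, 476.4 and 469 at 5%, 10%, 20% and 30% CR. Every restricted array lay above its control, the slope being 0.36 ± 0.0432 per 10 percentage points (log2, adjusted p = 0.00131, limma) and 0.29 ± 0.0431 without the controls (adjusted p = 0.0180). With the 1-week control and 5% CR arrays exchanged, the signal at 5% CR for 1 week (247.5) would lie below the control (279.2). The slope passed in 20 of 20 alternatives (adjusted p = 0.000245 to 0.0237), and the slope without controls lost its call without the 5% or 30% CR array of either duration (adjusted p = 0.0570 to 0.101) and with eBayes without trend (adjusted p = 0.207). Against control the difference was 0.77 ± 0.191 (adjusted p = 0.0516), which passed in 4 of 21 alternatives (adjusted p = 0.0102 to 0.460). Among these, it was 0.85 without the 1-week 5% CR array (adjusted p = 0.0102) and 0.67 with the 1-week control and 5% CR arrays exchanged (adjusted p = 0.401).

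The other lists held 1 further call. Of the 4 other small heat shock proteins tested none passed, and Hspb8, a partner of Bag3 in clearing damaged filament proteins, had the smallest p (-0.26 ± 0.0890, adjusted p = 0.177, lower in 8 of 8), followed by Hspb3 (0.11 ± 0.0883, adjusted p = 0.633). With the 1-week control and 5% CR arrays exchanged, Hspb8 at 5% CR for 1 week would be 2000.7, above a control of 1782.5. None of 12 mitochondrial chaperones passed (median 0.08), with Trap1, the mitochondrial HSP90 (0.20 ± 0.0785, adjusted p = 0.232), and Clpx (0.16 ± 0.0691, adjusted p = 0.304) first. None of the 8 TRiC subunits, which fold actin and tubulin, passed (median -0.07), with Cct5 (-0.24 ± 0.0648, adjusted p = 0.0778) and Cct6a (-0.16 ± 0.0729, adjusted p = 0.318) first. Of 6 heat shock factors and regulators none passed (median -0.06), with Serpinh1 (-0.22 ± 0.146, adjusted p = 0.546) and Hmox1 (-0.21 ± 0.186, adjusted p = 0.676) first, while Hsf1, the factor itself, gave -0.05 ± 0.0819 (adjusted p = 0.840).

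Among 7 filament and Z-disc partners 1 rose, while 1.13% of all probe sets were called higher. It was Vim, which encodes vimentin, an intermediate filament of mesenchymal cells and of regenerating fibres. It had 685.1 in the 1-month control and 850.9, 901.3, 1001.4 and 1008.8 at 5%, 10%, 20% and 30% CR for 1 month, and at 1 week 1118.6 in the control and 1305.4, 1311.5, 1463.9 and 1443.6 at 5%, 10%, 20% and 30% CR. Both controls were the lowest arrays of their duration, with a difference of 0.38 ± 0.0815 (log2, adjusted p = 0.0273) and a slope of 0.14 ± 0.0306 (adjusted p = 0.0308). The call of Vim against control held in 11 of 21 alternatives. Among others, it was lost without the 1-week or 1-month control or the 1-week or 1-month 20% CR array. With any 1 array left out the difference was 0.30 to 0.45. It was also lost with median centring (0.38, adjusted p = 0.133, limma). With the 1-week control and 5% CR arrays exchanged it was lost too (0.24, adjusted p = 0.514). Its slope was called in 9 of 20 alternatives. The mean log2 signal of 7 fibroblast genes was 9.70 to 10.15 in the restricted 1-month arrays and 9.74 in the 1-month control. It was 10.50 to 10.64 in the restricted 1-week arrays and 10.34 in the 1-week control. The mean of 6 macrophage genes was 5.48 to 6.04 in the restricted 1-month arrays and 5.31 in the 1-month control, and 5.97 to 6.07 in the restricted 1-week arrays and 5.59 in the 1-week control. The mean of 3 nerve and Schwann cell genes was 6.53 to 6.76 in the restricted 1-month arrays and 6.26 in the 1-month control, and 6.86 to 7.14 in the restricted 1-week arrays and 6.67 in the 1-week control. For 3 adipocyte genes the mean was 6.49 to 7.03 in the restricted 1-month arrays and 6.21 in the 1-month control. It was 6.46 to 7.40 in the restricted 1-week arrays and 6.40 in the 1-week control. With the arrays as titled, the macrophage, nerve and adipocyte means were higher in all 8 restricted arrays than in their controls, as Vim was. The fibroblast mean was higher in 7 of 8. Genes of the macrophage list differed at 1 week. Cd163 had 13.3 in the control and 39.2, 46.9, 49.1 and 53.2 at 5%, 10%, 20% and 30% CR. Csf1r had 85.9 in the control and 83.9, 105.1, 84.9 and 58.2 at those levels. C1qb had 64.5 in the control and 60.3, 54.2, 79.7 and 80.7. With the 1-week control and 5% CR arrays exchanged, Vim at 5% CR would be 1118.6 against 1305.4 in the control. The macrophage mean would be 5.59 against 6.00, the nerve mean 6.67 against 6.86 and the fibroblast mean 10.34 against 10.64. The adipocyte mean would be 6.40 against 6.46. The part of these cells in the Vim result was not tested.

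Genes with the most similar set of 8 log2 ratios were listed for 4 members, by the root mean square difference over the 8 comparisons and with other probe sets of the same gene left out. For Hsp90aa1 they were Ppp1r10 (0.0791), Smad3 by 2 probe sets (0.0864 and 0.0996), Tmem263 (0.106) and Atg4b (0.110). For Cryab they were Lpl (0.0950), Slc16a1 (0.108), Mb (0.118), Wfs1 (0.120) and Fabp3 (0.120), of which Lpl, Slc16a1, Mb and Fabp3 encode lipoprotein lipase, a lactate carrier, myoglobin and a fatty acid binding protein. For Hspb1 they were Emp1, Shisa4, Synpo2, Mmachc and Pxk (0.0869 to 0.105), and for Hspd1 Uba3, Spsb3, Gmfb, Cox10 and Trak2 (0.0488 to 0.0626). The 8 ratios share 2 control arrays, and the lists are descriptions.

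The trimmed mean signal, which the MAS5 scaling levels, was 85.8 to 86.3 on the 1-month arrays and 99.1 to 99.6 on the 1-week arrays. Control genes of the array were not level at 1 month. The GAPDH 3′ probe set had 6928 to 8643.6 in the restricted 1-month arrays and 10455.2 in the 1-month control, and 10896.4 to 11659.7 in the restricted 1-week arrays and 10499.1 in the 1-week control. The beta-actin 3′ probe set had 3329.5 to 3911.4 in the restricted 1-month arrays and 4562.3 in the 1-month control, and 4761.9 to 5645.7 in the restricted 1-week arrays and 5659.1 in the 1-week control. The part of these differences between arrays in the members' values was not tested.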

How the data were processed

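The deposited intensity values are Affymetrix signals that the authors made with MAS5 (version not given in the sources used here), 1 value per probe set and array, scaled by the authors; no detection calls were used. Probe sets were named through the platform annotation, and 10 members were matched to 15 probe sets. Signals under 0.1 were set to 0.1, log2 was taken, and the 15521 probe sets with a mean at or above the 50th percentile were fitted with limma 3.58.1 (R 4.3.3; lmFit, eBayes with trend, Benjamini-Hochberg at 0.05). The fits were restricted against control and the slope on the level, each with duration as a factor, the slope without controls, 1 month against 1 week with the level as a covariate, and restriction by duration. The code of the fits was tried on simulated data with independent noise and planted differences, which says nothing about how these arrays vary. The number of arrays limits the precision.

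The main probe set of a gene was the one with the highest mean log2 signal. From each list of partners, genes passing restricted against control or the slope were named (up to 6), otherwise the 2 with the smallest p. The members and lists were chosen with earlier results of these data known. Alternatives were other scalings, filters, log scales and variance models, each array left out, and the exchange of the 1-week control and 5% CR arrays.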

Additional observations from a re-analysis of the deposited data

Results flagged for a closer look

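In 4 members the restricted arrays moved in opposite directions at the 2 durations, lower than the control in all 4 arrays at 1 month and higher in all 4 at 1 week, as were 5.21% of all probe sets. The pattern held for 2 members with quantile normalization, 1 with median centring and 0 with the 1-week control and 5% CR arrays exchanged. With cyclic loess it held for Hspb7, Cryab and Hspb6. The restricted minus control value at 1 month less the same at 1 week was -1.6091 (log2) for Hspb7, -0.6609 for Cryab, -0.4762 for Hspb6 and -0.3184 for Hspa8. The limma test of this difference passed for none of them (adjusted p = 0.107, 0.508, 0.560 and 0.672), and with the exchange Hspb7 gave -0.27 (adjusted p = 0.975).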

How the results depend on the processing

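For restricted against control, the 1 called member, Hsp90aa1, gave 0 calls with eBayes without trend, with the 1-week control and 5% CR arrays exchanged, with 1 month alone, with 1 week alone and with the slow fibre mean as a covariate (added after the data were seen), and 0 to 1 when each array was left out, 0 without the 1-week or 1-month control or the 1-week or 1-month 20% CR array. Its difference stayed between -0.47 and -0.24 under 22 alternatives, 13 of which passed (adjusted p = 0.00577 to 0.527). The dimmer probe set passed in 17 of 21. In the slope fit, 1 member (Hsp90aa1, -0.11, adjusted p = 0.0343) was called with the rank of the level, against 0. For 1 month against 1 week, 6 called members became 2 with quantile normalization, 1 with median centring and 2 with cyclic loess, and 5 to 8 with an array left out. Over all probe sets, 175 were called higher and 5088 lower, against 723 and 852 with quantile normalization. With median centring Cryab (0.0153), Hspd1 (0.0136) and Hsph1 (0.0652) changed sign. For restriction by duration, 0 to 1 members were called with an array left out, 1 being Hspb7 without the 1-week 10% CR array; leaving out a control gave no value. Members higher in all 4 arrays at 1 week were 2 with quantile normalization, 1 with median centring and 1 with the exchange, against 4, where 22.1%, 12.6% and 17.7% of all probe sets were, against 23.9%. Members lower at 1 month and higher at 1 week were 2, 1 and 0 under those, against 4, where 3.89%, 1.62% and 3.52% of all probe sets were, against 5.21%. With cyclic loess, Hspb7, Cryab and Hspb6 were higher in all 4 at 1 week (22.8% of all probe sets) and also lower at 1 month (4.42%). With the exchange, members lower in all 4 at 1 week were 1 (20.6% of all probe sets), against 4 (22%), and lower in all 8 was 1 (Hspd1; 6.75%), against 2 (8.36%). The 1 probe set at -0.25 or lower in all 8 was 0 with the exchange and 0 at a minimum of 0.5. The cause of these changes was not tested. Hspb1 was called lower at 1 month in 21 of 21 alternatives and Hspb6 in 20 of 21, not with median centring.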
